A study of Canis lupus familiaris with 25 samples.

Results

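Hepatoid gland adenomas (HGA) from intact and from neutered dogs were compared in 10 of the 25 canine tumor samples of the study, which were sequenced with QuantSeq 3′, a method that counts transcripts from reads near their 3′ end. The 10 HGA were divided by the neuter status in the sample labels, and a dog whose label did not say neutered was treated as intact. The intact group was HGA 3, 4, 5, 6, 7 and 9, from 4 males and 2 females aged 8 to 14 years (median 12.5). The neutered group was HGA 1, 2, 8 and 10, from 3 females and 1 male aged 11 to 13 years (median 11.5). All were archival formalin-fixed and paraffin-embedded (FFPE) tissue, and the age at neutering and the hormone levels of the dogs were not given in the sources used here. Sex was unevenly split between the groups, and the numbers of dogs were too small to separate it fully from neuter status.

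The hepatoid glands around the anus of dogs are modified sebaceous glands, and adenomas of these glands are known to depend on androgens, since they arise mostly in intact males and often shrink after castration. Steroid hormones act largely through receptors that bind DNA once they hold their ligand. Neutering removes the gonads, the main source of androgens, estrogens and progesterone, while the adrenal glands go on making steroids that tissues can convert.

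Counts on genes ranged from 1562347 (HGA 4) to 5914236 (HGA 6) in the intact group and from 2472919 (HGA 2) to 6389555 (HGA 1) in the neutered group. Levels are given as CPM, counts scaled to the library size with TMM factors, and a gene is compared only with itself across samples. A count of 0 allows 3 counts, which is 0.467 to 1.73 CPM depending on the sample, and this limit covers counting error only. An exact two-sided permutation test over the 210 ways to choose 4 of 10 samples, which cannot give a p below 0.00476, gave p = 0.667 for total counts, 0.948 for the number of genes detected, 0.233 for DV200 and 0.938 for age (adjusted over these 4 measures 0.948, 0.948, 0.933 and 0.948). DV200, the percentage of RNA fragments longer than 200 bases, was 70.7 to 92.7 in intact and 70.5 to 74.2 in neutered dogs. By the study's supplementary tables the tumors came from several RNA extraction batches, of which 2 held both groups. HGA 4 and 9 shared a batch with neutered HGA 8, and intact HGA 5 shared a batch with neutered HGA 1 and 2.

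Certain libraries stood apart from the rest. The median correlation of log CPM with the other HGA, across genes, was 0.715 for HGA 10, 0.767 for HGA 4 and 0.802 for HGA 9, and 0.834 to 0.887 for the other 7 libraries. HGA 10 lay at 121 and HGA 4 at 60.3 on the first principal component, which held 27.7% of the variance, while the other 8 libraries lay below 0. HGA 10 was the neutered male, the only HGA of its extraction batch and the only HGA in its sequencing name series. Several results that rest on these libraries are therefore given with and without them.

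**Figure D1:**
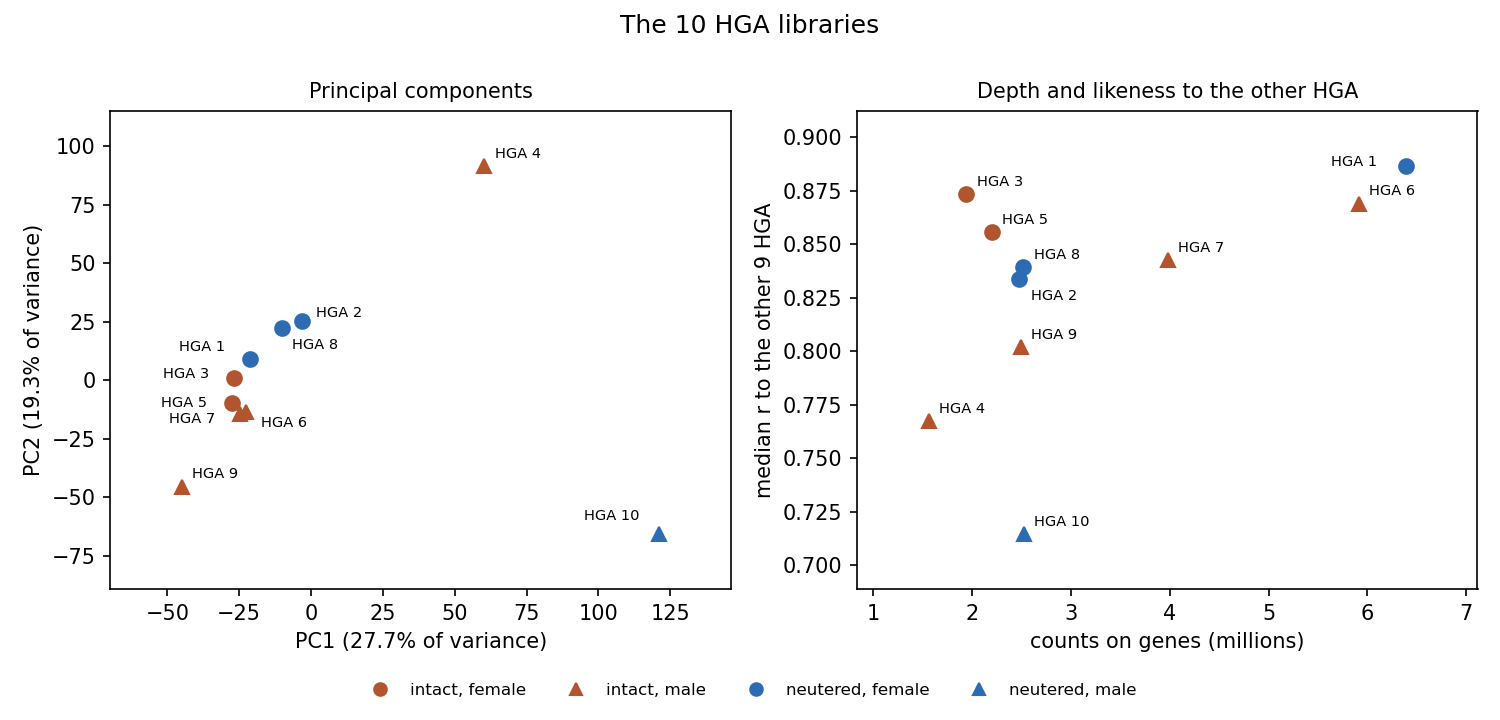
The left panel plots the 10 HGA on the first and second principal components (27.7% and 19.3% of the variance), and the right panel plots the median correlation of each with the other 9 against its counts on genes. Color is neuter status and shape is sex, and HGA 10 and HGA 4 lie far from the rest in the left panel and lowest in the right one.

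The tumor label was checked against markers of the hepatoid gland and of apocrine glands, the origin of the other tumor type in the series. All 9 hepatoid gland markers passed the filter on low counts, with a summed level of 13307 to 37652 CPM in intact HGA (median 20967) and of 22084 (HGA 1), 24930.1 (HGA 2), 16844 (HGA 8) and 7751 (HGA 10) in neutered HGA. DHRS2, a short-chain dehydrogenase and the most abundant of them, was 459 CPM in HGA 10, 2091 CPM in HGA 4 and at 8587 to 20548 CPM elsewhere. KRT79, a keratin of the sebaceous gland and its duct, was 36.7 CPM in HGA 10 and 919 to 2279 elsewhere. Of the 9 apocrine gland markers only KRT7 passed the filter, and QRFPR and GCGR had a count of 0 in all 10 libraries. HGA 10 thus held the lowest sum and the lowest DHRS2, KRT79, CIDEA and TGM5 of all HGA, but the highest IL1R2, the decoy receptor for interleukin-1 (2613 CPM), and the highest TP63, a transcription factor of basal cells (499 CPM). The sex labels could not be checked, since XIST and the listed Y-linked genes were not found by symbol in the table.

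Of 24532 genes in the table, 11906 passed the filter and were tested with edgeR's quasi-likelihood test. The log2FC is that of intact relative to neutered dogs. LOC607509 was the only gene called, with thresholds of 0.05 on the Benjamini-Hochberg adjusted p and of 1 on the size of the log2FC, so that 1 gene (0.0084%) was higher and 0 (0%) were lower in intact dogs. At an unadjusted p of at most 0.05, 547 genes (4.59%) were higher and 620 (5.21%) were lower. With the thresholds on the adjusted p and the log2FC, DESeq2 called 59 higher and 34 lower. The groups did not overlap in 149 genes higher (1.25%) and 170 genes lower (1.43%) in intact dogs. The median log2FC of all tested genes was −0.01. Without HGA 2 edgeR called no gene higher (454 at the unadjusted p), and without HGA 1 it called CD80, a costimulatory molecule, in place of LOC607509. It called 3 genes higher without HGA 5, 4 without HGA 10, and 5 without HGA 4 and 10. Called lower was 1 gene each without HGA 5 and without HGA 10, and 3 genes without HGA 4 and 10. Without HGA 8 the call was that of COBL.

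LOC607509, whose product is not given in the sources used here, was 55.3 CPM in HGA 3, the lowest intact sample, with an intact median of 292 and a highest value of 536 in HGA 9. In neutered dogs it was 9.02 (HGA 1), 2.50 (HGA 2), 6.53 (HGA 8) and 9.27 CPM (HGA 10). All 6 intact tumors thus lay above all 4 neutered tumors, and HGA 3 was the closest to them. LOC607509 rose by a log2FC of 5.45 (SE 0.65, adjusted p = 0.0146). The difference was also seen among females, with 55.3 and 440.3 CPM in intact HGA 3 and 5 against 2.50 to 9.02 in neutered HGA 1, 2 and 8. Within the shared extraction batches it was 255 (HGA 4) and 536 (HGA 9) against 6.53 (HGA 8), and 440.3 (HGA 5) against 9.02 (HGA 1) and 2.50 (HGA 2). The adjusted p was 0.0390 with sex and 0.0307 with extraction batch as a term, and 0.0569, 0.0929 and 0.0748 without HGA 1, 2 and 8, so that each of these libraries was needed for the call. It was 0.146 with Benjamini-Yekutieli adjustment, 0.244 in females only and 0.125 with the spread of all 21 primary tumors. Over all alternatives it ranged from 1.56e-20 to 0.244, with a log2FC of 4.99 to 6.04.

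**Figure D2:**
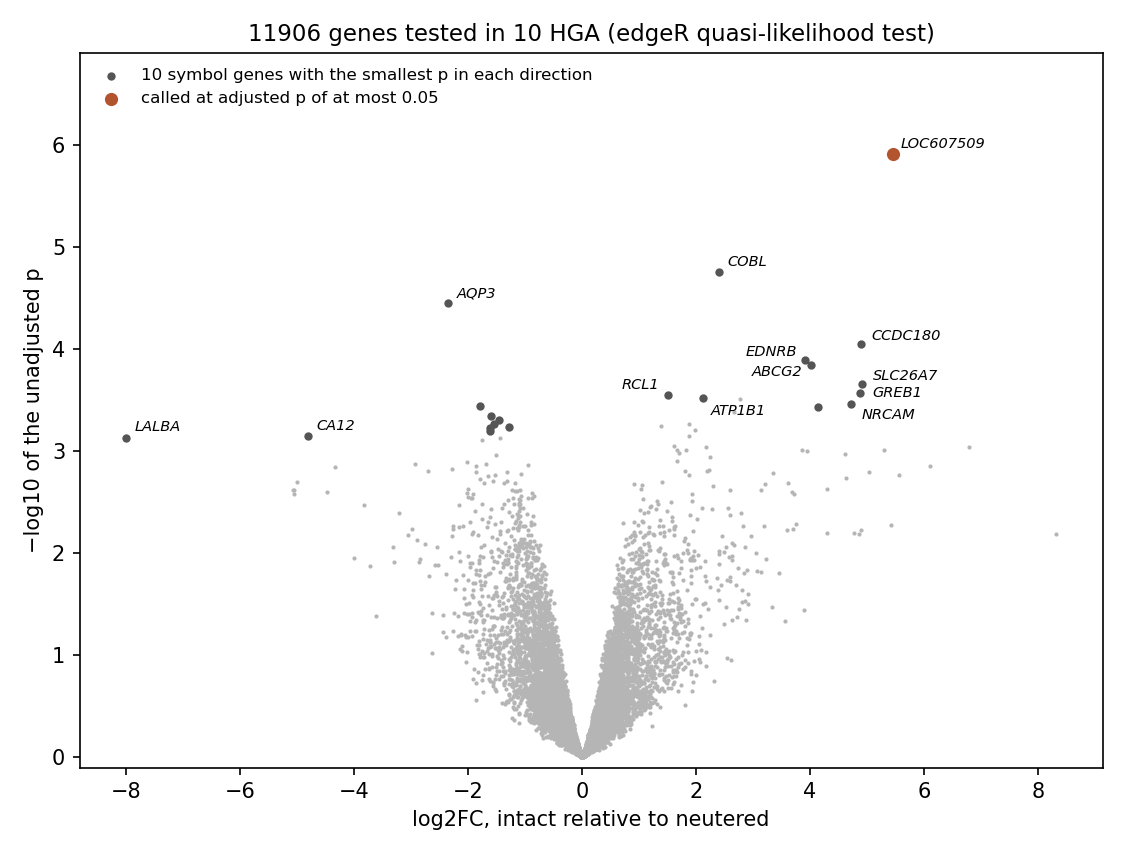
Each point is 1 of the 11906 tested genes, with the log2FC of intact relative to neutered dogs on the x axis and −log10 of the unadjusted p on the y axis. LOC607509 is the only gene called, and the dark points are the 10 symbol genes with the smallest p in each direction.

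The 10 genes with a gene symbol and the smallest p in each direction did not pass the test (adjusted p 0.106 to 0.313 in those higher and 0.142 to 0.313 in those lower in intact dogs), and are given as values. Groups did not overlap in 8 of the 10 higher and 9 of the 10 lower genes, a feature favored by choosing the smallest p. Each of the 20 kept its sign in every alternative that tested it, and DESeq2 called 18 of them.

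COBL, an actin nucleator, was 67.4 to 91.0 CPM in intact tumors (median 83.6) and 13.2 (HGA 1), 12.9 (HGA 2), 29.6 (HGA 8) and 6.85 CPM (HGA 10) in neutered tumors. The intact tumors lay close together and all above HGA 8, the highest neutered one. The log2FC was 2.40 (SE 0.37, adjusted p = 0.106), and the adjusted p was 0.0152 without HGA 8 and 0.0466 without HGA 10 (range over the alternatives 7.26e-08 to 1). Within the shared batches COBL was 78.6 (HGA 4) and 81.3 (HGA 9) against 29.6 (HGA 8), and 91.0 (HGA 5) against 13.2 (HGA 1) and 12.9 (HGA 2). CCDC180, which encodes a coiled-coil protein, was 4.62 to 17.1 CPM in intact tumors (median 8.83). In neutered tumors its raw counts were 1 (HGA 1), 0 (HGA 2), 3 (HGA 8) and 0 (HGA 10), no more than a count of 0 allows, so no fold is given.

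EDNRB, the endothelin receptor type B, was 9.73 to 133 CPM in intact tumors (median 88.6) and 6.53 (HGA 1), 2.91 (HGA 2), 3.07 (HGA 8) and 7.25 CPM (HGA 10) in neutered tumors (log2FC 3.91, SE 0.73). SLC26A7, an anion transporter, was 7.30 to 307 CPM (median 91.6) against 6.22, 3.74, 1.92 and 1.21 CPM in the same order (log2FC 4.92, SE 0.98). In either gene the groups did not overlap, and the intact females HGA 3 and HGA 5 lay lowest among the intact tumors and closest to the neutered ones. Among females alone the log2FC was 1.70 for EDNRB and 1.61 for SLC26A7, and with sex as a term it was 2.48 (SE 0.53) and 2.96 (SE 1.00). The adjusted p of EDNRB was 0.0450 without HGA 5 (range over the alternatives 2.54e-06 to 1).

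ABCG2, an efflux transporter of many compounds, was 10.7 to 86.8 CPM in intact tumors (median 41.2) and 2.02 (HGA 1), 6.66 (HGA 2), 3.07 (HGA 8) and 0 CPM (HGA 10) in neutered tumors (log2FC 4.02, SE 0.76). GREB1, a cofactor of the estrogen receptor that estrogen and androgen are known to induce, was 2.79 to 148 CPM (median 67.1) against 5.60, 0.416, 2.31 and 0 CPM in the same order (log2FC 4.87, SE 0.99). ABCG2 did not overlap between the groups, and the intact females HGA 3 (30.7 CPM) and HGA 5 (10.7 CPM) lay lowest among the intact tumors. The log2FC of ABCG2 was 2.44 in females only, 3.55 (SE 0.88) with sex and 2.82 (SE 0.88) with extraction batch as a term. GREB1 overlapped between the groups through HGA 9, its lowest intact tumor, and the other 5 intact tumors lay at 54.8 CPM or more. RCL1, a factor of ribosomal RNA processing, was 102 to 248 CPM (median 148) against 51.0, 48.3, 61.1 and 66.1 CPM (log2FC 1.50, SE 0.31). RCL1 did not overlap between the groups and varied little within the neutered one.

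ATP1B1, the beta subunit of the sodium pump, was 187 to 1093 CPM in intact tumors (median 619) and 178 (HGA 1), 108 (HGA 2), 143 (HGA 8) and 204 CPM (HGA 10) in neutered tumors. Only HGA 5 fell within the neutered range, and without it the adjusted p was 0.0450 (range over the alternatives 0.000319 to 1) in place of 0.313. NRCAM, a cell adhesion molecule, was 3.89 to 78.0 CPM (median 15.8) against 1.71, 0, 1.92 and 0 CPM, and TMEM61, a membrane protein, was 3.89 to 63.3 CPM (median 23.8) against 1.24, 2.91, 2.69 and 0 CPM. HGA 5 was the lowest intact tumor in NRCAM and TMEM61 as well, and neither gene overlapped between the groups.

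**Figure D3:**
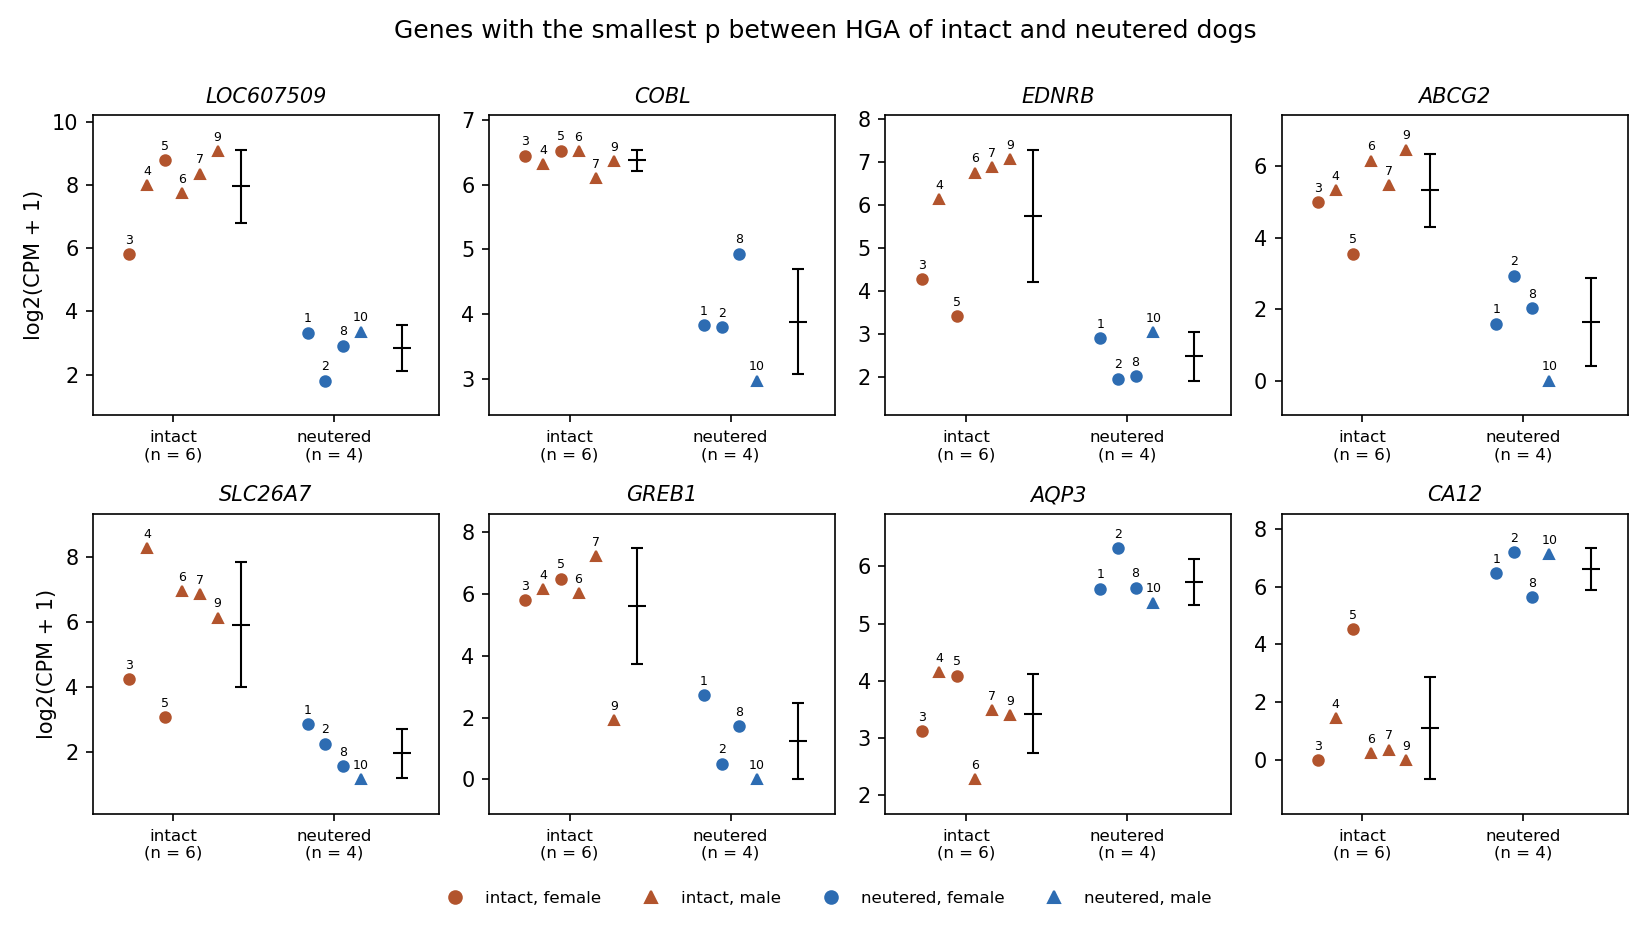
Points are log2(CPM + 1) of 8 genes in each HGA, labelled by HGA number, with color for neuter status, shape for sex, and the mean ± SD of the log2 values beside each group. The groups are apart in every panel but that of GREB1, where HGA 9 lies among the neutered tumors.

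Among the genes lower in intact dogs, AQP3, a water and glycerol channel of epithelia, was 3.84 to 16.8 CPM in intact tumors (median 9.89). In neutered tumors it was 47.9 (HGA 1), 78.6 (HGA 2), 48.4 (HGA 8) and 40.3 CPM (HGA 10), so that the highest intact tumor, HGA 4, lay well below the lowest neutered one. The log2FC was −2.35 (SE 0.38, adjusted p = 0.142), and the adjusted p was 0.0354 without HGA 4 and 10 (range over the alternatives 3.85e-05 to 1). Within the shared batches AQP3 was 16.8 (HGA 4) and 9.56 (HGA 9) against 48.4 (HGA 8), and 16.1 (HGA 5) against 47.9 (HGA 1) and 78.6 (HGA 2). CA12, a membrane carbonic anhydrase and known estrogen target, was 0 CPM in HGA 3 and HGA 9, with an intact median of 0.225 and 21.9 CPM in HGA 5. In neutered tumors CA12 was 87.1 (HGA 1), 144 (HGA 2), 48.8 (HGA 8) and 138 CPM (HGA 10). The groups did not overlap, and HGA 5 alone among the intact tumors held more than 3 counts of it. The log2FC was −4.81 (adjusted p = 0.313). Without HGA 5 the adjusted p was 0.000815 (range over the alternatives 0.000815 to 1), and no fold is given there, since all remaining intact tumors were at or below the limit of a count of 0.

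COL16A1, a collagen chain, was 11.2 to 25.1 CPM in intact tumors (median 19.8) and 34.4 (HGA 1), 77.0 (HGA 2), 37.7 (HGA 8) and 115 CPM (HGA 10) in neutered tumors. GAS1, a membrane protein of hedgehog signaling, was 10.4 to 39.4 CPM (median 25.6) against 70.5, 109, 67.2 and 49.6 CPM in the same order. MARCKS, an actin-binding substrate of protein kinase C, was 153 to 334 CPM (median 238) against 467, 499, 509.8 and 853 CPM. In these genes every intact tumor lay below every neutered tumor, and HGA 10 was the highest in COL16A1 and MARCKS and the lowest neutered tumor in GAS1. The same separation held for DDIT4L, an inhibitor of mTOR signaling, CBX2, a Polycomb protein, PTPRK, a receptor tyrosine phosphatase, and TEF, a transcription factor of the circadian clock, with log2FC of −1.60, −1.46, −1.55 and −1.62. LALBA, which encodes the alpha-lactalbumin of milk, was 3528 CPM in HGA 10 and 0 to 17.4 CPM in the other 9 HGA. The groups overlapped, and the log2FC without HGA 10 was −1.55.

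Of the steroid hormone receptors described here, none was called by edgeR or DESeq2 or reached an unadjusted p of 0.05 in edgeR with all 10 HGA. ESR1, the estrogen receptor alpha, was 78.9 to 224 CPM in intact tumors (median 159.9) and 194 (HGA 1), 146 (HGA 2), 185 (HGA 8) and 109.6 CPM (HGA 10) in neutered tumors (log2FC 0.01, SE 0.31). The groups overlapped fully in ESR1, whose sign changed in 8 of 26 alternatives. NR3C1, the glucocorticoid receptor, had a log2FC of −0.51 (SE 0.51), and of −0.78 to −0.18 with each HGA left out in turn. NR3C2, the mineralocorticoid receptor, had a log2FC of 0.45 (SE 0.30). NR3C2 was 90.6 to 156 CPM in intact tumors and 60.3 to 68.3 CPM in 3 neutered tumors but 154 CPM in HGA 10. The log2FC of NR3C2 was 0.87 without HGA 10, where the groups did not overlap (SE 0.24, unadjusted p = 0.00306, adjusted p = 0.284), 0.92 in females only and 1.06 with extraction batch as a term. The membrane progesterone receptor components PGRMC1 and PGRMC2 had log2FC of 0.30 (SE 0.49) and 0.35 (SE 0.45), and the sign changed for PGRMC1 without HGA 10 (−0.04) and for PGRMC2 with extraction batch as a term (−0.20). PGR, the progesterone receptor, had a count of 0 in all 10 tumors and was not detectable at this depth. ESR2, the estrogen receptor beta, had counts only in HGA 3 and HGA 7, and GPER1, a membrane estrogen receptor, reached 12.1 CPM in HGA 4, and neither passed the filter.

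Genes known to respond to androgens in other tissues showed little common direction. Of 65 tested androgen response genes, 29 had a positive log2FC and the median was −0.07. SMS, HPGD and STK39 were higher and B4GALT1 was lower at an unadjusted p of at most 0.05, beside 4.59% and 5.21% of all tested genes, the background of every later count at this p with all 10 HGA. SMS, spermine synthase, was 50.1 to 280.4 CPM in intact tumors (median 106) and 12.4 (HGA 1), 23.3 (HGA 2), 28.4 (HGA 8) and 45.9 CPM (HGA 10) in neutered tumors (log2FC 2.18, SE 0.51, adjusted p = 0.321). HPGD, which inactivates prostaglandins, was 245 to 597 CPM (median 406) against 217, 57.4, 162 and 43.5 CPM (log2FC 1.81, SE 0.46, adjusted p = 0.327). These were the 2 members whose groups did not overlap, beside 1.25% of all tested genes without overlap and higher in intact dogs. ELOVL5, a fatty acid elongase and the most abundant member, was 829.5 CPM in HGA 4 and 303 CPM in HGA 10, and 3252 to 12835 CPM in the other tumors. With each HGA left out in turn, 2 to 4 members were higher and 0 to 5 lower at an unadjusted p of at most 0.05. Among all tested genes 415 to 742 were then higher and 483 to 821 lower. The lower members numbered 5 without HGA 10, 4 without HGA 3, and 3 without HGA 4 or HGA 6. Of all tested genes 5.12%, 4.95%, 7.02% and 4.26% were lower in these fits, in the same order. Without HGA 4 and 10, 5 members were higher and 7 lower at an unadjusted p of at most 0.05, beside 1068 and 946 of 12084 genes.

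Among 12 tested estrogen and progesterone response genes, 3 had a positive log2FC and the median was −0.36, with GREB1 higher and CA12 lower at an unadjusted p of at most 0.05. These known estrogen targets thus lay in opposite directions. The median of the list was −0.38 to −0.09 with each HGA left out in turn. Of 17 tested steroid converting enzymes, 13 had a positive log2FC and the median was 0.30 (0.15 to 0.50 with each HGA left out in turn). CYP7B1, a hydroxylase of oxysterols and steroids, and CYB5A, a cytochrome that assists CYP17A1, were higher at an unadjusted p of at most 0.05, beside 4.59% of all tested genes. CYP7B1 was 1.16 to 111 CPM in intact tumors (median 55.5) and 11.0 (HGA 1), 4.16 (HGA 2), 8.07 (HGA 8) and 0 CPM (HGA 10) in neutered tumors (log2FC 3.22, SE 1.09). Over the alternatives the log2FC of CYP7B1 ranged from 0.51 to 3.78. The high values were those of the males HGA 6, 7 and 9, at 99.7, 104 and 111 CPM, while the male HGA 4 was at 1.16 CPM and the females HGA 3 and 5 at 11.3 and 11.2 CPM, so that 3 of 6 intact tumors lay near or within the neutered range. HSD17B12, the most abundant enzyme of the list, was 613 to 1214 CPM in intact tumors (median 1028) and 1089 (HGA 1), 797 (HGA 2), 1123 (HGA 8) and 158 CPM (HGA 10) in neutered tumors, of which only HGA 10 lay outside the intact range. Of 15 tested steroid receptor coregulators, 11 had a positive log2FC (median 0.21) and 0 reached an unadjusted p of 0.05. Their median was 0.04 to 0.31 with each HGA left out in turn. HSP90AB1, a chaperone of steroid receptors, was 7529 CPM in HGA 4 and 964 to 1472 CPM in the other 9 tumors.

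Growth factor genes were examined in a pair of lists. Of 17 tested genes of the growth hormone, prolactin and IGF axis, 11 had a positive log2FC (median 0.31), and PRLR, the prolactin receptor, was lower at an unadjusted p of at most 0.05. PRLR was 75.7 to 329 CPM in intact tumors (median 176) and 447 (HGA 1), 323 (HGA 2), 288 (HGA 8) and 295 CPM (HGA 10) in neutered tumors (log2FC −0.89, SE 0.34), with only HGA 6 inside the neutered range. Of 10 tested epidermal and fibroblast growth factor genes, 4 had a positive log2FC (median −0.28) and 0 reached an unadjusted p of 0.05. BTC, the EGF receptor ligand betacellulin, was 3.47 to 40.9 CPM in intact tumors, had a count of 0 in HGA 10 and was 12.3 to 14.1 CPM in the other neutered tumors.

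Sebaceous lipid genes were examined because the hepatoid glands are modified sebaceous glands. SCD, a fatty acid desaturase and the most abundant gene of the list, was 34792 to 104971 CPM in intact tumors (median 90304) and 71772 (HGA 1), 58162 (HGA 2), 63797 (HGA 8) and 2068 CPM (HGA 10) in neutered tumors. The groups overlapped through HGA 4 and HGA 9, and HGA 10 was far below all others. Of 24 tested members, 17 had a positive log2FC, with a median of 0.43 for all 10 HGA and of 0.06 without HGA 4 and 10. FASN, LPIN1, FABP5 and CD36 were higher and DGAT2, GPAM and ACSL5 were lower at an unadjusted p of at most 0.05, beside 4.59% and 5.21% of all tested genes. HGA 10 was far above all others in GPAM (635 CPM) and ACSL5 (1382 CPM), and the other neutered tumors lay within the intact range except for ACSL5 in HGA 2, slightly above it. LPIN1, a phosphatidate phosphatase, was 16.4 to 63.2 CPM (median 27.7) against 7.62, 10.8, 21.1 and 1.61 CPM (log2FC 1.77, SE 0.59), and FABP5, a fatty acid binding protein, was 15.0 to 60.8 CPM (median 24.2) against 12.4, 6.66, 19.6 and 10.1 CPM (log2FC 1.29, SE 0.44). LPIN1 and FABP5 overlapped between the groups through HGA 8.

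Of 25 tested genes of cholesterol synthesis and uptake, 18 had a positive log2FC (median 0.42, and 0.34 without HGA 4 and 10). SCARB1, the most abundant member, went the other way. It was 1031 to 3694 CPM in intact tumors (median 1819) and 2498 to 4416 CPM in neutered tumors (median 3135). The summed level was also lower in intact tumors, at 4931 to 8494 CPM (median 7128) against 7774 to 9250 CPM (median 7999). The groups overlapped in both. PMVK, FDPS, EBP and SC5D were higher and HMGCS1 and ABCG1 were lower at an unadjusted p of at most 0.05, a count to read beside the same 4.59% and 5.21%. FDPS, which makes farnesyl diphosphate, was 97.1 to 223 CPM in intact tumors (median 204) and 134 (HGA 1), 80.7 (HGA 2), 61.5 (HGA 8) and 46.8 CPM (HGA 10) in neutered tumors (log2FC 1.19, SE 0.34). HMGCS1, an earlier enzyme of the same pathway, was 34.3 to 97.8 CPM (median 68.7) against 163, 109, 93.0 and 366 CPM (log2FC −1.40, SE 0.40). HGA 10 was the highest in HMGCS1, and the log2FC was −0.82 without it and −0.38 in females only. FDPS and HMGCS1 thus differed in sign. Of 29 tested genes of peroxisomes and fatty acid oxidation, 16 had a positive log2FC (median 0.07, and −0.03 without HGA 1). ACADM, a mitochondrial dehydrogenase of medium chain fatty acids, was 609 CPM in HGA 10 and 37.4 to 145 CPM elsewhere. Of 14 tested lipid droplet proteins, 6 had a positive log2FC (median −0.21), and CIDEC, which fuses lipid droplets, was lower at an unadjusted p of at most 0.05 (log2FC −1.47, SE 0.48). The droplet proteins that were lower numbered 4 without HGA 10, 2 without HGA 1 or HGA 4 and 0 without HGA 2, where the median was 0.02, beside 5.12%, 5.63%, 7.02% and 4.29% of all tested genes in the same order.

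Of the 9 hepatoid gland markers, 5 had a positive log2FC (median 0.29), and MC5R, the melanocortin receptor of sebaceous glands, was higher at an unadjusted p of at most 0.05. MC5R was 18.7 to 687 CPM in intact tumors (median 45.1) and 1.56 (HGA 1), 12.9 (HGA 2), 16.9 (HGA 8) and 39.1 CPM (HGA 10) in neutered tumors (log2FC 3.15, SE 1.13), and the highest value was that of HGA 4. Without HGA 4 the log2FC of MC5R was 1.48 (SE 0.70) and no hepatoid gland marker was higher at that p, and without HGA 9 the median was −0.22. The sum of the apocrine gland markers was 18.5 to 139 CPM in intact tumors and 2.02 to 101 CPM in neutered tumors, most of it KRT7, a keratin of simple epithelium, except in HGA 10, where KRT7 had 2 counts. Of 14 tested basal keratinocyte genes, 7 had a positive log2FC (median −0.03), with ITGA6 higher and COL17A1 lower at an unadjusted p of at most 0.05. COL17A1, the hemidesmosomal collagen of basal cells, was 0 to 15.6 CPM in intact tumors (median 5.12) and 35.8 (HGA 1), 37.9 (HGA 2), 21.1 (HGA 8) and 35.9 CPM (HGA 10) in neutered tumors (log2FC −2.29, SE 0.71). COL17A1 did not overlap between the groups, whereas ITGA6, an integrin of the same junction, did (log2FC 0.72, SE 0.27). Of 20 tested cornification genes, 6 had a positive log2FC (median −0.28), and DSG1, a desmosomal cadherin, was lower at an unadjusted p of at most 0.05 (log2FC −0.59, SE 0.25). With each HGA left out in turn, 0 to 2 cornification genes were higher and 0 to 3 lower at that p. Among all tested genes 415 to 742 were then higher and 483 to 821 lower. The median was −0.50 to −0.13 for the cornification genes and −0.19 to 0.13 for the basal keratinocyte genes in these fits.

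Of 16 tested macrophage and dendritic cell markers, 15 had a negative log2FC. The median was −0.86, and 7 members were lower at an unadjusted p of at most 0.05 (CSF1R, MSR1, C1QA, C1QB, ITGAX, CD86 and TYROBP), beside a median of −0.01 and 5.21% over all tested genes. C1QA, a complement component made by macrophages and the most abundant of them, was 31.6 to 54.3 CPM in intact tumors (median 42.7) and 66.1 (HGA 1), 64.1 (HGA 2), 98.7 (HGA 8) and 84.6 CPM (HGA 10) in neutered tumors (log2FC −0.87, SE 0.24, adjusted p = 0.332). C1QA and CD86, a costimulatory molecule, did not overlap between the groups, beside 1.43% of all tested genes without overlap and lower in intact dogs. The summed level of the list was 143 to 339.9 CPM in intact tumors (median 253) and 424, 408, 659.7 and 291 CPM in the same order of neutered tumors, of which only HGA 10 fell within the intact range. Within the shared batches it was 276 (HGA 4) and 143 (HGA 9) against 659.7 (HGA 8), and 211 (HGA 5) against 424 (HGA 1) and 408 (HGA 2). Without HGA 8 the count of 7 became 2 and the median −0.63, without HGA 1 or HGA 2 the count was 4, and with sex as a term it was 2 and the median −0.52. With DV200 as a term it was 2 as well. In these fits 3.48% to 5.63% of all tested genes were lower. In bulk samples, fewer cells of a type and less RNA per cell cannot be told apart.

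Antigen presentation genes followed a like pattern, with 13 of 13 tested members at a negative log2FC and a median of −0.94. DLA-DRA, DLA-DQA1, TAP1, PSMB8 and CTSS were lower at an unadjusted p of at most 0.05, beside 5.21% of all tested genes. TAP1, the peptide transporter of the class I pathway, was 4.61 to 16.2 CPM in intact tumors (median 7.71) and 16.5 (HGA 1), 34.1 (HGA 2), 39.2 (HGA 8) and 6.45 CPM (HGA 10) in neutered tumors (log2FC −1.46, SE 0.49). CTSS, a protease that processes the class II invariant chain, was 11.6 to 105 CPM (median 50.2) against 119, 141, 256 and 65.3 CPM (log2FC −1.39, SE 0.48). HGA 10 was the only neutered tumor within the intact range in either gene. B2M, the light chain of class I molecules and the most abundant member, was 282 to 553 CPM in intact tumors (median 396) and 462, 1288, 1058 and 163 CPM in neutered tumors. The summed level was 800.2 to 1264 CPM in intact tumors (median 1026) and 1319 (HGA 1), 2721 (HGA 2), 2859 (HGA 8) and 617 CPM (HGA 10) in neutered tumors, so HGA 10 held the lowest sum and the other neutered tumors the highest. The 5 lower members became 9 of 14 tested without HGA 10, 10 of 14 without HGA 4 and 10, 1 without HGA 8 and 0 with sex as a term, where the median was −0.61. With extraction batch as a term 9 were lower and the median was −1.54. The share of all tested genes that were lower was 5.12%, 7.83%, 4.32%, 5.43% and 3.48% in these fits, in the same order. The macrophage markers moved with these genes, and their part in the result was not tested.

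**Figure D4:**
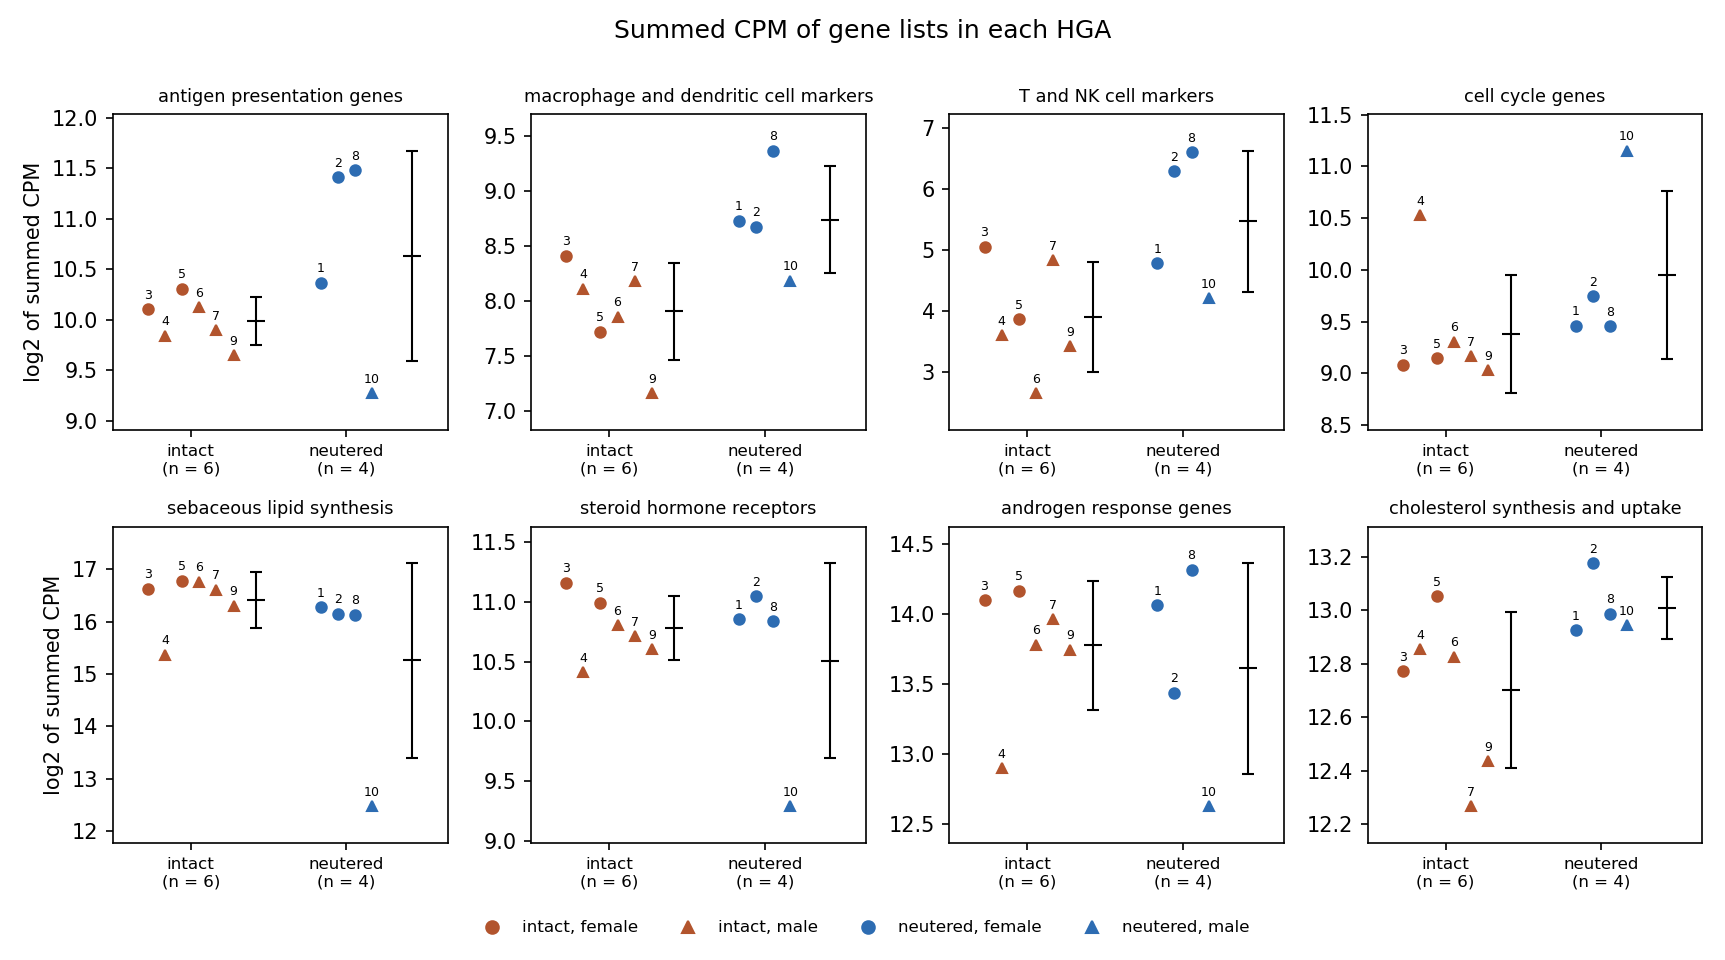
Points are the log2 of the summed CPM of 8 gene lists in each HGA, labelled by HGA number, with color for neuter status, shape for sex, and the mean ± SD of the log2 values beside each group. HGA 1, 2 and 8 lie above all intact tumors for antigen presentation genes and macrophage markers, and HGA 10 lies apart for cell cycle and lipid genes.

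Of 15 tested interferon-stimulated genes, 3 had a positive log2FC (median −0.50), and BST2 and IFI44L were lower at an unadjusted p of at most 0.05, beside 5.21% of all tested genes. BST2, a membrane protein that tethers viruses, was 5.58 to 26.1 CPM in intact tumors (median 8.87) and 25.4 (HGA 1), 69.1 (HGA 2), 50.7 (HGA 8) and 13.7 CPM (HGA 10) in neutered tumors (log2FC −1.76, SE 0.49). The groups overlapped through HGA 3 alone, which lay above HGA 1 and HGA 10. Without HGA 2 the median was −0.13, and 4 members were lower without HGA 3 or HGA 10, beside 4.95% and 5.12% of all tested genes. T and NK cell markers were too low for a comparison by gene, as 1 of 21 passed the filter, and their sum was 6.28 to 33.3 CPM in intact tumors (median 13.4) and 27.5, 78.2, 97.2 and 18.5 CPM in neutered tumors. Of the B and plasma cell markers 4 were tested (median −0.43) and of the neutrophil and mast cell markers 3 (median −0.17). With all 10 HGA, 0 of either reached an unadjusted p of 0.05. With each HGA left out in turn, these medians were −0.65 to −0.29 and −0.89 to 0.44, in the same order.

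Of 30 tested cell cycle genes, 28 had a negative log2FC, with a median of −0.93, and the value depended on both HGA 10 and HGA 4. MCM4, part of the replicative helicase, was 1.19 to 15.0 CPM in intact tumors (median 3.40) and 4.67 (HGA 1), 7.49 (HGA 2), 18.1 (HGA 8) and 64.9 CPM (HGA 10) in neutered tumors (log2FC −2.30, SE 0.78). TYMS, thymidylate synthase, was 24.3 to 43.8 CPM (median 27.9) against 40.5, 47.4, 50.7 and 110.0 CPM (log2FC −0.97, SE 0.32). The groups overlapped in MCM4 and TYMS, and HGA 10 was far above the other tumors. With each HGA left out in turn, the log2FC was −2.99 to −1.05 for MCM4 and −1.14 to −0.54 for TYMS. The summed level was 704 (HGA 1), 858 (HGA 2), 703 (HGA 8) and 2276 CPM (HGA 10) in neutered tumors. It was 1477 CPM in HGA 4 and 524 to 634 CPM in the other intact tumors, below every neutered tumor. AURKB, MCM4, TYMS, CENPF, KIF23 and UBE2C were lower at an unadjusted p of at most 0.05, beside 5.21% of all tested genes, and this count of 6 became 0 without HGA 10, where 15 of 30 members had a positive log2FC and the median was 0.01. It became 12 of 25 tested without HGA 4, 3 of 27 without HGA 5 and 1 of 25 without HGA 4 and 10, where the median was −0.47, beside 7.02%, 4.78% and 7.83% of all tested genes. With extraction batch as a term it was 0 and the median 0.28.

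**Figure D5:**
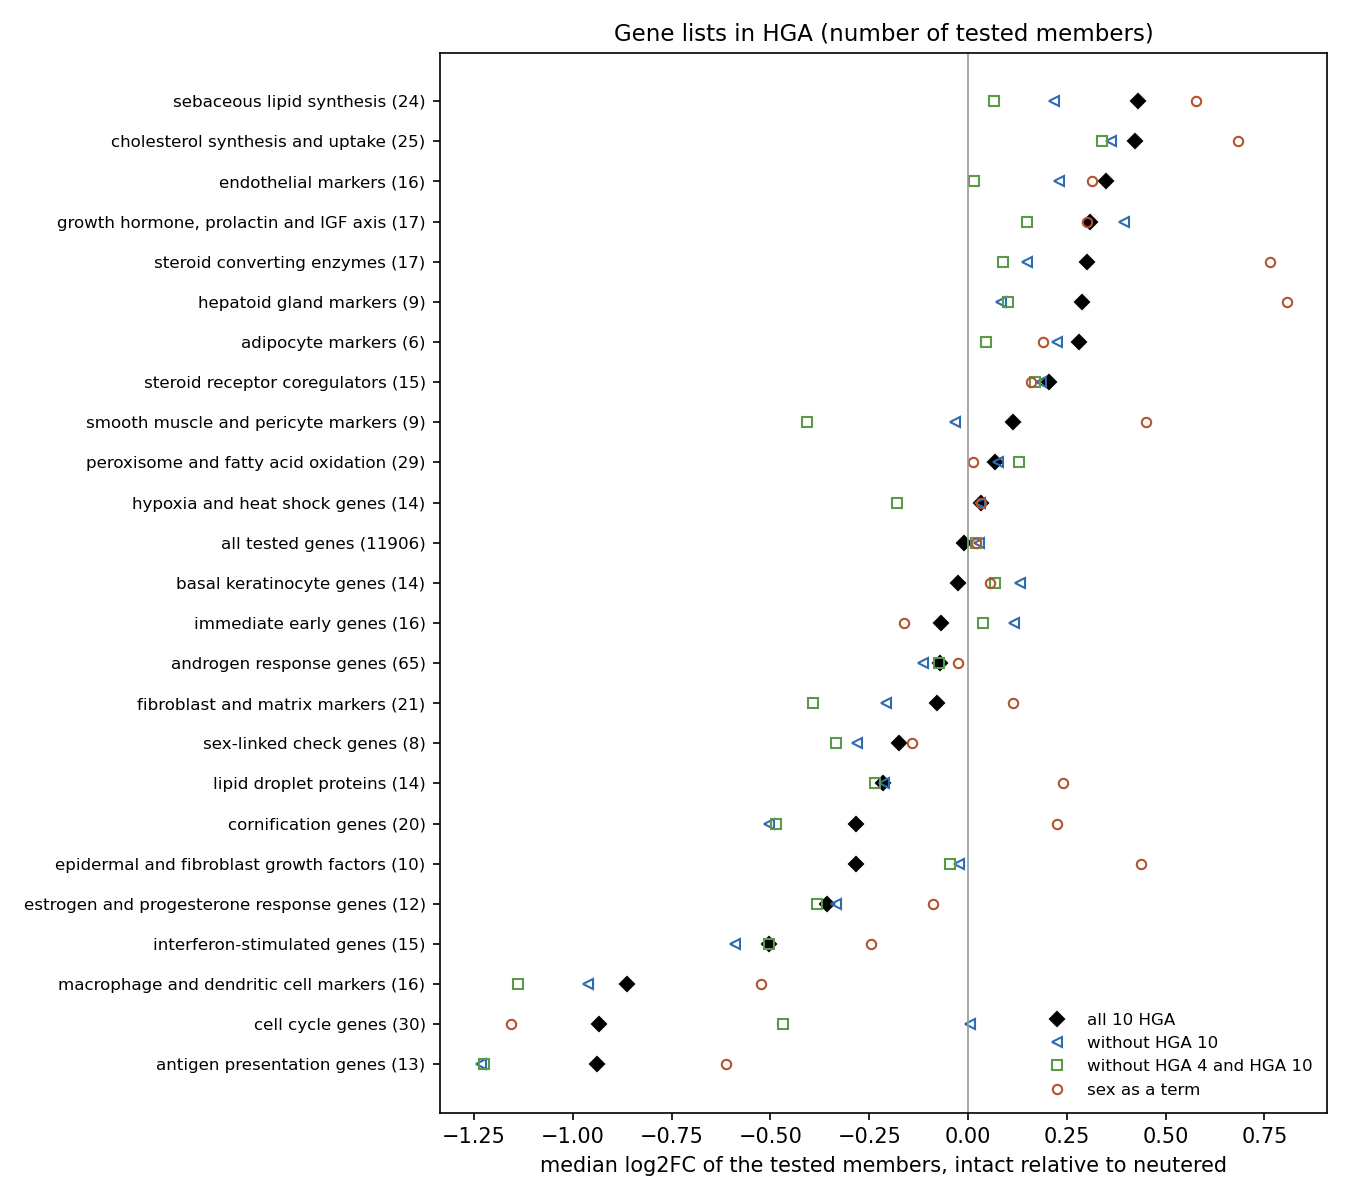
The median log2FC of the tested members of gene lists, intact relative to neutered, is plotted for all 10 HGA, without HGA 10, without HGA 4 and 10, and with sex as a term, with the number of tested members in parentheses. Macrophage markers and antigen presentation genes stay below 0 in all 4, whereas cell cycle genes move to 0.01 without HGA 10. Without HGA 4 and 10 the cell cycle genes lie below 0 again.

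Markers of the stroma were examined in the same way. Of 16 tested endothelial markers, 12 had a positive log2FC (median 0.35, and 0.02 without HGA 4 and 10), and FLT1, a VEGF receptor, was higher at an unadjusted p of at most 0.05. VWF, the von Willebrand factor and the most abundant of them, was 79.8 to 256 CPM in intact tumors (median 114) and 92.1 (HGA 1), 81.1 (HGA 2), 115 (HGA 8) and 103 CPM (HGA 10) in neutered tumors. Of 21 tested fibroblast and matrix markers, 6 had a positive log2FC and 0 reached an unadjusted p of 0.05. Their median was −0.08, and −0.28 to 0.11 with each HGA left out in turn. COL1A1, a fibrillar collagen chain, overlapped between the groups throughout its range. POSTN, a matrix protein of fibroblasts, was 241 CPM in HGA 4 and 3.07 to 31.2 CPM in the other tumors, and its log2FC of 1.40 was −0.52 without HGA 4. Of 9 tested smooth muscle and pericyte markers, 5 had a positive log2FC (median 0.11, and −0.41 without HGA 4 and 10). MYLK, the myosin light chain kinase, was higher at an unadjusted p of at most 0.05. With each HGA left out in turn, the median of the list was −0.19 to 0.79. The members higher at that p then numbered 0 to 3, beside 415 to 742 of all tested genes. Of 6 tested adipocyte markers, 4 had a positive log2FC (median 0.28, and −0.15 without HGA 1), and CIDEC was again the lower gene. Of the markers of nerve and Schwann cells 3 were tested (median 0.32), of melanocytes 1 (log2FC −0.65) and of skeletal muscle 0. The skeletal muscle sum stayed at or below 34.2 CPM. With each HGA left out in turn, the median of the nerve and Schwann cell markers was −0.07 to 0.59.

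Genes that respond to tissue handling showed no common direction. Of 16 tested immediate early genes, 5 had a positive log2FC (median −0.07), and of 14 tested hypoxia and heat shock genes, 9 had (median 0.03), with 0 of either at an unadjusted p of at most 0.05. VEGFA, an angiogenic factor that hypoxia induces, was 1074 CPM in HGA 4, 114 CPM in HGA 10 and 9.73 to 30.7 CPM in the other tumors, and its log2FC of 1.99 (SE 1.33) was −1.40 without HGA 4. Without HGA 4, 2 members of the hypoxia and heat shock list were lower at that p, beside 7.02% of all tested genes, and the median was −0.17. Of 8 tested X-linked genes 2 had a positive log2FC (median −0.17), and EIF2S3, a translation initiation factor, was lower at an unadjusted p of at most 0.05. In females EIF2S3 was 103 (HGA 3) and 115 CPM (HGA 5) in intact and 157 to 250 CPM in neutered tumors. In males it was 118 CPM in HGA 4 and 60.5 to 73.3 CPM in the others, who included neutered HGA 10 (62.5 CPM).

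To learn whether the difference by neuter status was particular to HGA, the same contrast was fitted in primary apocrine gland anal sac adenocarcinoma (AGASAC), in a fit of all 21 primary tumors. The 2 intact dogs were females of 8 and 11 years, and the 9 neutered dogs were 3 females and 6 males of 8.5 to 12.5 years, so there was no intact male. There 3 of 15598 genes (0.0192%) were called, LOC102154832, LOC111094517 and SERPINB7. None of these 3 was called in females only, where TLL1, LY6E, ST8SIA6, FAM184B and CA4 were called. With sex as a term the calls were LOC102154832, CA4 and SERPINB7. The difference between the tumors in the intact versus neutered effect was called for 2 genes (0.0128%), LOC102154832 and SERPINB7, each at an adjusted p of 0.0142. The size of the difference was not measurable, because both had counts near 0 in most neutered AGASAC and SERPINB7 also in HGA. LOC102154832, whose product is not given in the sources used here, was 51.4 to 613 CPM in intact HGA (median 337) and 743 (HGA 1), 328 (HGA 2), 884 (HGA 8) and 894 CPM (HGA 10) in neutered HGA, so it was present in every HGA and the groups overlapped. In AGASAC it had 676 counts in intact AGASAC 8, 4 in intact AGASAC 4 and 0 to 8 in the neutered tumors. SERPINB7, a serine protease inhibitor of the epidermis, was at most 1.24 CPM in any HGA, with 221 and 195 counts in intact AGASAC 4 and 8 and 0 to 3 in neutered AGASAC. In HGA LOC102154832 was not called (adjusted p = 0.515), and SERPINB7 did not pass the filter and was not tested. The difference between tumors was called by edgeR for LOC102154832 alone without AGASAC 4, and for 0 genes without AGASAC 8, fits that leave 1 intact AGASAC and take the spread from the other groups. It was called for 0 genes with sex as a term or in females only. With all samples 1093 genes had an unadjusted p of at most 0.05 for this difference. KRTDAP, a keratinocyte differentiation protein with the next smallest p, did not pass (adjusted p = 0.0798). The difference between the tumors was not called for LOC607509 (adjusted p = 0.486).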

How the data were processed

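QuantSeq 3′ libraries of 25 canine FFPE tumors were deposited as a table of 24532 genes, of which the 10 HGA are described here. The authors trimmed the reads, aligned them to CanFam3.1 and deposited whole counts per gene, made with 3′ ends of genes extended and with multi-mapped reads divided among their locations. The versions of their tools are not given in the sources used here. The size-factor scaled signal that the authors deposited beside the counts was not used, nor were the log2 fold changes and p-values of the authors' comparison of tumor types. Near-identical gene copies cannot be told apart in such counts.

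The test within HGA was edgeR 4.0.16 in R 4.3.3 (filterByExpr by neuter group, minimum count 10 and total 15, TMM, quasi-likelihood test, Benjamini-Hochberg adjustment over all tested genes), with the SE taken from the log2FC and its F statistic. Calls required an adjusted p no larger than 0.05 with a log2FC of 1 or more in size. The alternatives were DESeq2 1.42.0, other scalings, filters and adjustments, sex, age, DV200 or extraction batch as a term, females only, and each library left out. A chi-square test of all pairs within a neuter group found no duplicate library (at least 12.2 per degree of freedom). CPM are scaled over the 10 HGA. Counts per sample ranged from 1562347 to 6389555, and molecular identifiers were not used.

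Named genes are the steroid hormone receptors, the 10 symbol genes with the smallest p in each direction, the most abundant gene and the 2 with the smallest p in each list with at least 5 tested members (32 lists in all), the label markers, and the 3 genes with the smallest p for the difference between tumors. Other list members that make up a printed count, and those called only in an alternative, were named after their values were seen. Of all these, 3 genes and the results that need them are not reported here. The members and lists were chosen with earlier results of these data known, and no list was tested as a set. Coordinates are left out because the only annotation at hand, UU_Cfam_GSD_1.0, is not the assembly of the counts.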

Additional observations from a re-analysis of the deposited data

Results flagged for a closer look

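Values of single samples that lay far from the rest of their group were looked for in 228 groups of 4 or 6 HGA, by the gap to the nearest sample over the range of the group. There were 31 such values. The cutoffs mark about 1 in 20 groups by chance where values are normally distributed and groups independent. Here the groups shared tumors and some genes, and the values were not log-transformed, so no excess over chance can be read from this count. HGA 10 had 11, HGA 4 had 9, HGA 1 had 5, HGA 8 and HGA 5 had 2 each, and HGA 3 and HGA 7 had 1 each.

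Among neutered tumors, HGA 10 stood far above the others in the sum of cell cycle genes (2276 CPM), and in LALBA (3528 CPM), IL1R2 (2613 CPM), MARCKS (853 CPM), ACADM (609 CPM), NR3C2 (154 CPM), VEGFA (114 CPM), TYMS (110.0 CPM) and TEF (83.4 CPM). It stood far below them in the sum of sebaceous lipid synthesis genes (5721 CPM) and in BTC (0 CPM). Among intact tumors, HGA 4 stood far above the others in the sums of cell cycle genes (1477 CPM), of hypoxia and heat shock genes (3624 CPM) and of the growth hormone, prolactin and IGF axis (4093 CPM). It did so too in HSP90AB1 (7529 CPM), VEGFA (1074 CPM), MC5R (687 CPM), POSTN (241 CPM), MCM4 (15.0 CPM) and GPER1 (12.1 CPM).

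HGA 1 was far above the other neutered tumors in its counts on genes (6389555) and genes detected (17794), and in FLT1 (12.9 CPM). HGA 8 was far below the other neutered tumors in COL17A1 (21.1 CPM). Among intact tumors, HGA 5 was far above the others in CA12 (21.9 CPM), HGA 3 in BST2 (26.1 CPM) and HGA 7 in VWF (256 CPM). The rule also marked CCDC180 in HGA 8 (1.15 CPM) and SERPINB7 in HGA 1 (1.24 CPM) and HGA 5 (0.486 CPM). These are 3, 8 and 1 counts, no more CPM than a count of 0 allows in some of the other libraries, so no difference was measurable there. It marked IGF2 in HGA 1 (9.96 CPM) as well, where the other neutered tumors were close to it at 7.25 to 7.68 CPM.

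A test of the difference between HGA and AGASAC in the effect of neuter status made calls for LOC102154832 (−9.27 on the log2 scale) and SERPINB7 (−10.39). These fitted values are not measured sizes, because both genes had counts near 0 in most neutered AGASAC. SERPINB7 had 0 to 8 counts in every HGA as well, so no effect of neuter status could be measured for it in HGA. The difference was called for neither gene without AGASAC 8, with sex as a term or in females only, and for LOC102154832 alone without AGASAC 4. Leaving out AGASAC 4 or 8 leaves 1 intact AGASAC. LOC607509, the gene called in HGA, had 374 counts in the metastasis of AGASAC 3, a sample that entered no comparison.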

How the results depend on the processing

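No paired analysis was possible because the HGA numbers run through both neuter groups and no number occurs in both, so the groups are different dogs. The groups held 6 and 4 tumors with depths down to 1562347 counts, and sex, extraction batch and neuter status partly overlapped. Effects near the spread between tumors may have been missed, and the reason for the number of calls was not tested. LOC607509 was the only gene called, and its log2FC stayed positive in 25 of 25 settings that tested it. Genes called higher in intact HGA numbered 5 with no filter, 0 with at least 10 counts in every HGA (LOC607509 was then not tested), 59 with DESeq2, 0 with Benjamini-Yekutieli adjustment, 0 in females only and 0 with the spread of the 21 primary tumors. They numbered 0 to 4 when each HGA was left out in turn. Genes called lower numbered 1 with no filter, 34 with DESeq2 and 0 to 1 with each HGA left out. A pair of settings was chosen after seeing the data, with 5 called higher and 3 lower without HGA 4 and 10, and 5 and 3 without HGA 4, 9 and 10. Genes at an unadjusted p of at most 0.05 numbered 315 to 1068 higher and 414 to 1233 lower over the settings. With each HGA left out in turn, the median log2FC was 0.11 to 0.39 for the growth hormone, prolactin and IGF axis. It was −0.36 to −0.02 for epidermal and fibroblast growth factors, −0.18 to 0.12 for immediate early genes and 0.18 to 0.73 for cholesterol genes. In AGASAC, 5 genes were called in females only and 3 to 5 when an intact sample was left out (the other intact sample was then alone, with the spread from the other groups), and the difference between tumors was called for 0 with sex as a term, 0 in females only and 0 to 1 with an intact AGASAC left out.

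Of 72 genes with a log2FC, 7 changed sign in any setting, in 25 of 1846 pairs of gene and setting. None of these 7 genes was called, and the cause was not tested. ESR1 was −0.012 with library size alone, −0.13 with batch and −0.0067 with age as a term, −0.12 without HGA 4 and 10, and −0.13 to 0.15 with each HGA left out. PGRMC1 ranged from −0.045 to 0.83 with each HGA left out, and PGRMC2 was −0.20 with batch as a term. IL1R2 was 0.21 in females only, 0.10 without HGA 4 and 10 and 0.30 without HGA 4, 9 and 10. POSTN was −0.64 with sex as a term, −1.89 in females, −0.32 without HGA 4 and 10, −0.13 without HGA 4, 9 and 10, and −0.52 to 1.64 with each HGA left out, the lowest without HGA 4. LPL was −0.73 in females. VEGFA was −0.049 with sex and −0.79 with DV200 as a term, −0.86 in females, −0.55 without HGA 4 and 10, −0.59 without HGA 4, 9 and 10, and −1.40 to 2.84 with each HGA left out, the lowest without HGA 4.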

Other observations

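LOC607509 was also high in an AGASAC of a neutered dog. It had 393 counts in the primary tumor AGASAC 3 and 374 in the metastasis of the same dog, whereas the other 13 AGASAC samples held 4 to 30 counts (median 8).

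Some genes called in HGA by edgeR only once libraries were left out were named after their values were seen. OLR1, a scavenger receptor for oxidized lipoprotein, was called lower in intact dogs without HGA 10 and without HGA 4 and 10. It had 33 counts in HGA 1, 72 in HGA 2, 41 in HGA 8 and 1 in HGA 10, and no more than 2 in any intact tumor, so no fold is given. CD80 was called higher in intact dogs only without HGA 1. It had 107 counts in HGA 1, 4 in HGA 2, 0 in HGA 8 and 2 in HGA 10, and 44 to 389 counts in intact tumors. LOC111092411 (log2FC 3.56, SE 0.43) and LOC111098116 were called higher without HGA 10, which held 97 and 39 counts of them, inside the intact ranges of 90 to 333 and 28 to 111 counts. The other neutered tumors held no more than 4 counts of LOC111098116, so no fold is given. FZD8, a Wnt receptor, was called lower (−2.02, SE 0.26) and FAM13A was called higher (1.73, SE 0.26) without HGA 4 and 10. With HGA 4, 9 and 10 left out, SLC7A11 (3.19, SE 0.45), a cystine transporter, was called higher, and SRGN (−2.67, SE 0.38), a proteoglycan of secretory granules, and UCP2 (−2.06, SE 0.28), a mitochondrial carrier, were called lower.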
